A study of Mus musculus with 20 samples.

Results

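The comparison described here sets the liver transcripts of DBA mice against those of 4 other inbred mouse strains. Each of the 5 strains was represented by 4 male mice with 1 single-colour (Cy3) Agilent array per mouse, 20 arrays in all. The difference of a gene is the mean of the 4 DBA arrays minus the mean of the 4 other strain means. A gene was called DBA-private when its 4 DBA values lay all above or all below the 16 other values. Of 20621 genes tested, 678 were DBA-private (3.29%). In 309 of these genes all DBA values were above the others (1.5% of the genes tested), and in 369 all were below (1.79%). These values chose the genes, so their differences are given as a description and without p-values.

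The strains were DBA/2J (DBA), 129P2/OlaHsd (129Ola), C57BL/6 (B6), C3HeB/FeJ (C3H) and NZO/HiBomDife (NZO). The diet of every group was high in fat (45%). Livers were collected at week 6, which the design text ties to the diet and the extraction text to the age of the mice. The series calls B6 and 129Ola lean and diabetes-resistant, DBA and C3H susceptible, and NZO obese and susceptible. No mouse on another diet entered the comparison. A strain difference present on any diet and a strain's own response to this diet therefore cannot be told apart. RNA was extracted with TRIzol, and the animal numbers of the labels were read as separate mice. Mice are named by these numbers, for example DBA 5.

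The arrays of C3H and 129Ola differed from the rest in their processing. Per the file headers they were read with a later version of Agilent Feature Extraction and another extraction protocol than B6, NZO and DBA, and C3H and 129Ola each had a scan day of their own. The share of probes flagged as well above background was 40.02 to 43.37% in 129Ola and 50.25 to 53.38% in DBA. DBA 8 and DBA 15 shared a slide and a scan day with no other strain. All C3H arrays shared a slide with no other strain, and 129Ola 4, 5 and 9 shared another. DBA 9 was scanned on the same day as 2 B6 and 3 NZO arrays, and DBA 5 on the same day as 2 B6 arrays and 1 NZO array. Hepatocyte markers were high on all arrays, with a mean level of 9.17 to 9.49 and 0 of 10 past the threshold. Levels are log2 processed signals minus the 75th percentile of the array, and differences are on the same log2 scale with their standard error (SE, 4 mice per strain).

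The liver makes most plasma proteins, including complement components and protease inhibitors, and clears drugs and lipids with large families of enzymes. Inbred strains are each fixed for their own alleles, so that a transcript can be present in 1 strain and nearly absent in another. DBA/2J is known to carry a defective allele of Hc, the gene of complement C5, and to lack the natural killer cell receptor subunit Klrd1 (CD94). A microarray reads a transcript through a probe of 60 bases, and any labelled RNA that pairs with these bases adds to its signal.

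The probe sequences are shown first because 1 sequence feature was shared by many of the genes that were higher in DBA. In 148 of the 309 genes (47.9%) the probe held the motif TGTGTGTG, an alternation of G and T, against 239 of all 20621 genes (1.16%). Without DBA 5 the counts were 151 of 483 higher genes. None of the 369 genes lower in DBA had such a probe. The reverse complement, CACACACA, was in the probes of 30 of the 369 lower genes (8.13%) and of 1 higher gene, against 130 of all genes (0.63%). Probes of 2 genes held both motifs. The motifs were searched on both strands as these letters, and they were noticed in the probes of genes that had already been found private. The stretches of 30 bases below come from the array files, written 5′ to 3′, with the longest unbroken alternation in capitals. The first 6 are the named genes with the largest differences among those with the GT motif, the next 3 those among the lower genes with the CA motif, and the last 3 have a second probe described further on.
Abca17: acttactcaTGTGTGTGTGTGcagacaagc
Magef1: GTGTGTGTGTaagcttatttgatgccgagc
Vax2: GTGTGTGTGTctgagtatgtatgtgtcact
Hpca: gtctgcacTGTGTGTGTGTGTGggcctctg
Blcap: gaatgtgtgtTGTGTGTGTGTttacatacc
Fdxacb1: ttttgtgttTGTGTGTGTGTGTaaaaaagt
Slc8a3: CACACACACACACACACACACACACACACA
Krt222: ttgtACACACACACACACACACACACccgg
Idua: CACACACACACACACACACAgagtctaaat
Ehmt1: GTGTGTGTGTGagtgtgtgtgactcttcta
Usf2: gtttggGTGTGTGTGTatgcgcgtgtgtgc
Itgam: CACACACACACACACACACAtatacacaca

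The probes of these genes lie, in mm9 coordinates of the files, at chr17:24404496-24404555 for Abca17, chr16:21332081-21332140 for Magef1, chr6:83688239-83688298 for Vax2, chr4:128789510-128789569 for Hpca, chr2:157382641-157382700 for Blcap and chr9:50580777-50580836 for Fdxacb1. Those of Slc8a3, Krt222 and Idua lie at chr12:82299156-82299215, chr11:99095480-99095539 and chr5:109112893-109112952. Those of Ehmt1, Usf2 and Itgam lie at chr2:24646395-24646454, chr7:31731077-31731136 and chr7:135261755-135261814. The first 6 genes have unrelated roles, among them a lipid transporter (Abca17), a homeobox factor (Vax2) and a neuronal calcium sensor (Hpca), and were higher in DBA by 3.23, 3.09, 2.99, 2.79, 2.72 and 2.68 in the order shown. Slc8a3, a sodium and calcium exchanger, Krt222, a keratin, and Idua, a lysosomal iduronidase, were lower by 2.09, 1.98 and 1.91. Whether a probe lies in an exon or an untranslated region was not analysed here.

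The difference followed the length of the alternation. Among the 19555 genes whose probe had at most 5 alternating G and T bases, 0.736% were private and higher, with a median difference of -0.06. The share was 16.5% of 97 genes with 8 or 9 bases, 45.7% of 46 genes with 10 or 11 bases, and 86.7% of 30 genes with 12 or 13 bases. All 62 genes with 18 or more bases were private and higher. The median difference was largest at 12 or 13 bases (2.06) and at 14 to 17 bases (2.05), and was 1.63 at 18 to 23 bases and 1.13 at 24 bases or more. For alternating C and A, 24 of 26 genes with 18 or more bases were private and lower (92.3%), with a median difference of -1.61, while 5 of 41 genes with 10 to 17 bases were (12.2%). With fewer C and A bases the share private and lower was 1.33 to 2.33%.

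**Figure D1:**
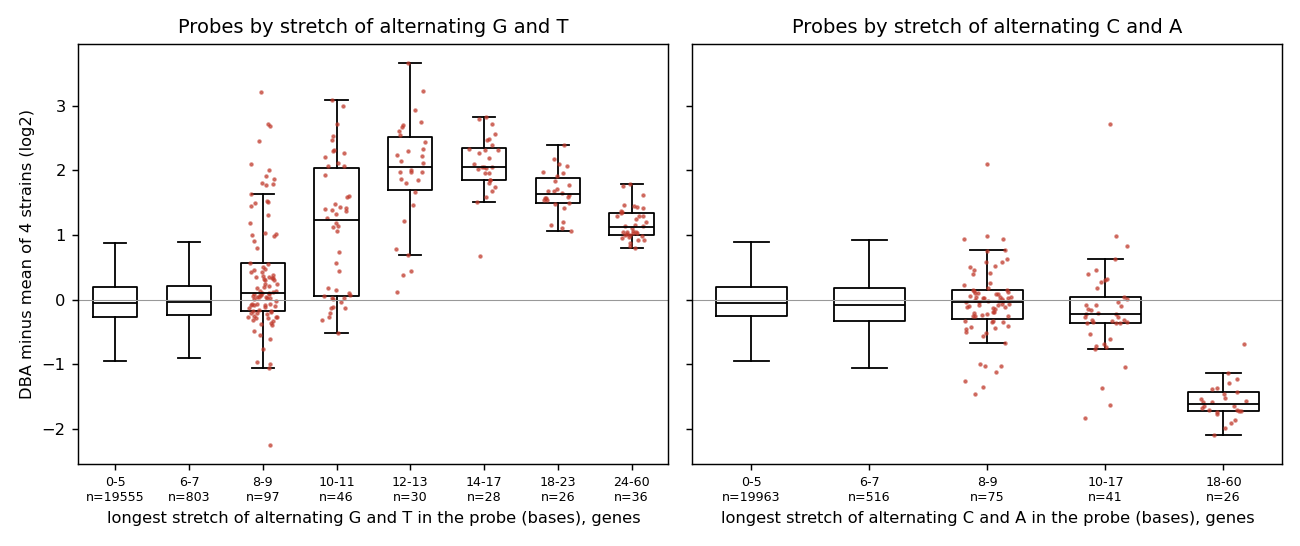
Difference of each gene (DBA minus the mean of the 4 other strains, log2) by the longest stretch of alternating G and T (left) or C and A (right) in its probe, with the number of genes under each group. Boxes give the median and quartiles, whiskers reach 1.5 times the box height, and red points are single genes of the smaller groups. The medians for G and T stay near 0 up to 7 bases and reach 2.06 at 12 or 13 bases, and the 26 genes with 18 or more C and A bases centre on -1.61.

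Probes with the GT motif were high on each DBA array. The median level over the 239 genes was 4.63, 4.78, 4.99 and 4.86 on the arrays of DBA 5, 9, 8 and 15. It was 4.81 ± 0.15 in DBA, 3.65 ± 0.17 in B6, 3.85 ± 0.28 in NZO, 3.24 ± 0.04 in C3H and 3.36 ± 0.22 in 129Ola (mean ± SD, n = 4). No DBA array overlapped another strain, and NZO 3, at 4.27, was the nearest. The median over all genes was 0.40 to 0.44 on all 20 arrays. Against single strains the median difference of the 239 genes was 1.13 for B6, 1.05 for NZO, 1.83 for C3H and 1.19 for 129Ola. Within a scan day it was 0.83 for DBA 9 and 1.30 for DBA 5 against B6 and NZO. Of the 239 genes, 174 were past the threshold as higher and 13 as lower, where the threshold is an adjusted p under 0.05 in limma over all genes. The 174 include all 148 private genes in which the motif was noticed. These 148 are also part of the medians over the 239 genes, so neither result is independent of that choice. Of all 20621 genes, 11.2% were past it as higher and 17.8% as lower. For the CA motif the medians were -0.899, -0.998, -0.894 and -0.996 in the same order of DBA mice. The nearest other array, B6 10, was at -0.885, so the groups lay close together without overlap.

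**Figure D2:**
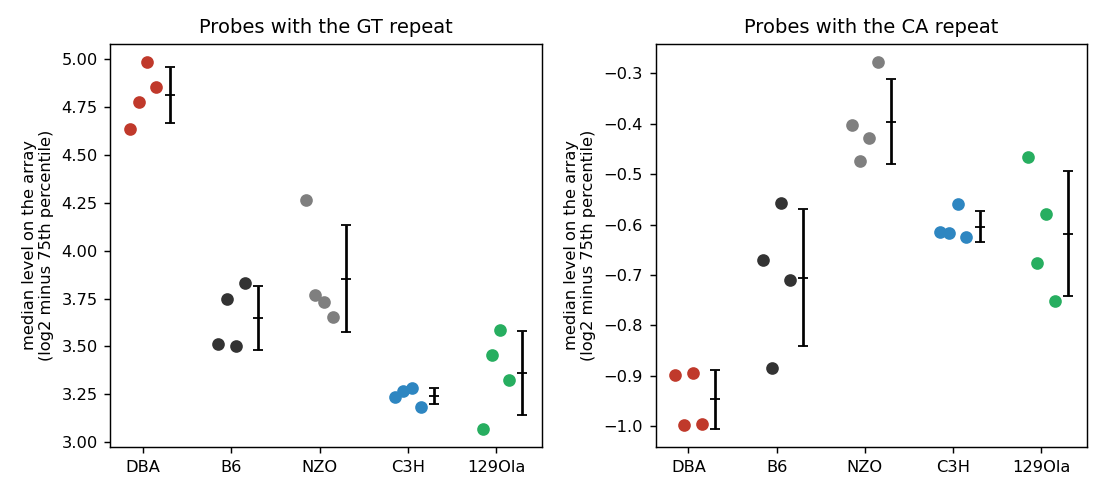
Median level (log2 signal minus the 75th percentile of the array) over the 239 genes whose probe holds TGTGTGTG (left) and the 130 genes whose probe holds CACACACA (right), with 1 point per array and the mean ± SD of 4 arrays beside each strain; the axes do not start at 0. On the left the DBA arrays lie between 4.63 and 4.99 and the 16 others between 3.07 and 4.27.

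Private genes of other strains rarely had the motif on the higher side. The probes of 1 of 301 genes private and higher in B6, 0 of 421 in NZO, 0 of 465 in C3H and 12 of 2526 in 129Ola held TGTGTGTG. The 148 motif genes private and higher in DBA could not be so in another strain, which lowers these counts in advance. Among genes private and lower, the motif was in 83 of 489 for C3H. The total number of private genes was 737 in B6 (3.57%), 819 in NZO (3.97%), 954 in C3H (4.63%) and 3117 in 129Ola (15.1%), and the last strain also had the fewest probes above background. The part of that lower share in its count was not tested.

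Other probes of the same genes gave different values. Of the 148 higher genes with the motif, 50 had other tested probes (77 in all), and 1 of these 77 was private and higher. The median difference of these 50 genes was 1.59 at the probe with the motif and 0.06 at the other probes. Of 160 higher genes without either motif, 40 had other probes (54 in all), of which 20 were private and higher, and the medians were 1.09 and 0.69. Of 339 lower genes without either motif, 78 had other probes (110 in all), of which 32 were private and lower, with medians of -0.65 and -0.41. For the 12 lower genes with the CA motif and another probe, 0 of 17 other probes were private and lower. Ehmt1, a histone methyltransferase, was higher by 2.27 at the probe shown and differed by -0.09 at its other probe. Usf2, a basic helix-loop-helix factor, gave 1.12 at the GT probe and -1.07 at the other. Itgam, the CD11b integrin subunit of myeloid cells, gave -1.52 at the CA probe and -0.05 and 0.04 at 2 others. For genes whose only probe holds the motif, the transcript and the repeat cannot be told apart. Leaving out the genes whose probe held either motif, 499 of 20254 genes were private (2.46%), 160 higher and 339 lower. Leaving out only those probes, so that another probe could stand for the gene, 160 of 20363 genes were private and higher and 340 lower.

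**Figure D3:**
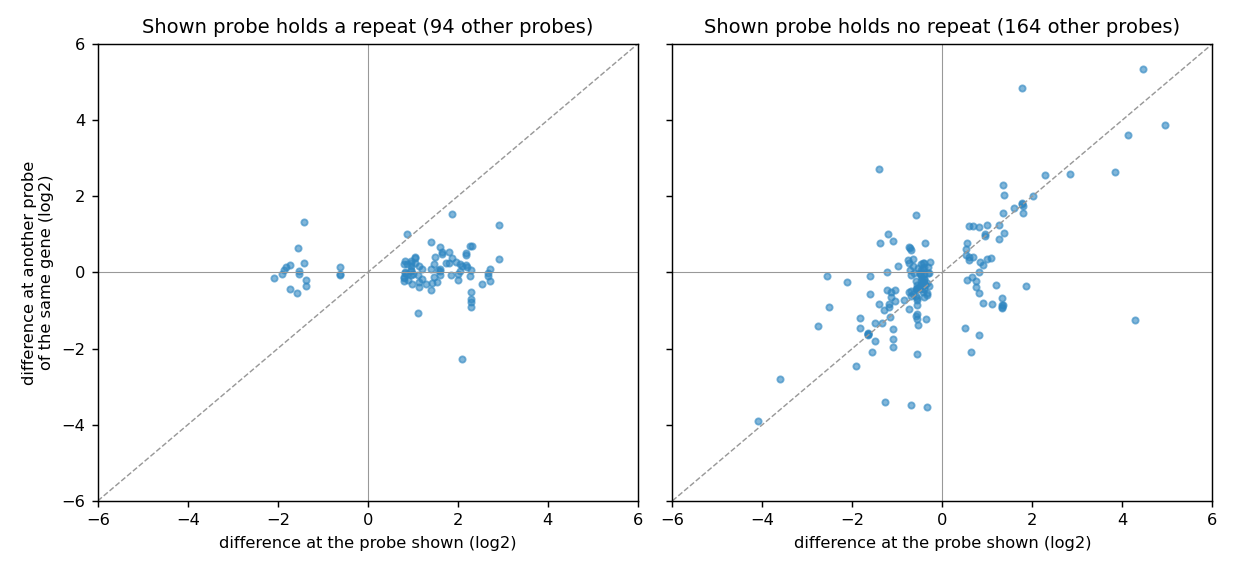
Difference (log2, DBA minus the mean of the other strains) at the probe that stands for a private gene (horizontal) and at each other tested probe of the gene (vertical), for probes with a repeat motif (left, 94 other probes) and without (right, 164). On the left the other probes scatter around 0, and on the right many lie near the dashed line of equal differences.

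The largest private difference was that of 5830417I10Rik, a gene with a clone name, at levels of -6.29 to -6.11 in DBA and 1.02 to 1.87 elsewhere. It was on no DBA array above background and at least 44.8-fold lower. Clone names, predicted genes and probes without a gene name were left out of the ranking that follows, and the largest differences in it were not at repeat probes. Obp2a, an odorant-binding lipocalin (probe at chr2:25557738-25557797), had levels of 3.26, 3.31, 5.04 and 6.32 in DBA 5, 9, 8 and 15. The 16 other arrays ranged from -6.15 in NZO to 0.90 in C3H, and 9 of the 16 measured it, none of them NZO. The DBA values spread over 3 log2 units but none came within 2.35 of another strain, and the difference was 7.63 ± 0.60. The alpha-defensins, antimicrobial peptides known from Paneth cells of the intestine, were next. Defa38 (chr8:22234705-22234764) had levels of 0.54, -1.65, 0.07 and 2.47 in DBA 5, 9, 8 and 15, and was not well above background on any other array. It was at least 16.6-fold higher, with measured means of 0.36 and -5.41. Defa29 (chr8:22465567-22465609) had levels of 0.26, -1.70, 0.12 and 2.49 and was at least 15.9-fold higher. Defa42 had levels of -0.61, -2.58, -1.01 and 1.55 in DBA 5, 9, 8 and 15 and was above background on 1 of the 16 other arrays. Its groups were not kept apart at a floor common to all arrays, and its difference over the alternatives ranged from 1.23 to 5.41. For Obp2a and these defensins DBA 15 had the highest level, and for the defensins DBA 9 had the lowest. The probes of Defa29 and Defa42 share a stretch of 27 bases, so their signals are not separate measurements. Those of Defa29 and Defa38 share at most 6 bases in a row. The levels of these 2 genes nearly matched on each DBA array, however, and the array may not separate them.

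Of 10 tested Serpina3 genes, protease inhibitors in a cluster on chromosome 12, 4 were private and higher in DBA, and the differences of all 10 ranged from -2.0 to 4.95. Serpina3a (chr12:105359965-105360024) had levels of 0.00, 0.21, 0.22 and 0.17 in DBA 5, 9, 8 and 15, between -5.92 and -3.79 elsewhere, and was well above background in DBA only. It was at least 14.4-fold higher, and its second probe was also private, at 3.87. Serpina3c was higher by 1.83 ± 0.22 and Serpina3n, an acute phase inhibitor, by 0.81 ± 0.13, with no overlap. Serpina3i was higher by 4.29 ± 0.15, with 129Ola nearest (difference 1.28), but its second probe gave -1.26. The probes of Serpina3a, Serpina3c and Serpina3i share at most 6 bases in a row, but the genes are close copies and the array may not separate them.

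Other higher genes differed in which strain came nearest. Rassf4, a Ras-association domain protein (chr6:116583451-116583510), had levels of 2.71, 3.59, 3.34 and 2.65 in DBA 5, 9, 8 and 15. Its levels were from -0.85 to 0.01 in NZO, -1.64 to 0.37 in 129Ola, -2.52 to -1.76 in B6 and -5.35 to -3.89 in C3H, where no array measured it, and the difference was 5.04 ± 0.30. Corin, a serine protease that processes natriuretic peptides, was higher by 4.90 ± 0.20. Beside DBA, the probe of Corin was above background in C3H only, at a difference of 1.66. Capn3, a calcium-dependent protease, was higher by 4.42 ± 0.15, Ncmap, a myelin protein, by 4.13 ± 0.24 and Camk2b, a calmodulin kinase subunit, by 3.83 ± 0.26. B6 was the nearest strain in these 3 genes. Of the 16 other arrays, 12 measured Capn3, 8 Ncmap and 10 Camk2b, none of them 129Ola, so the size of these differences depends in part on signals near background. Sfi1, a centrosomal protein, was higher by 3.78 ± 0.18, at levels of 2.43, 1.90, 2.41 and 2.44 in DBA 5, 9, 8 and 15. The nearest strain was 129Ola, at -0.14 to 0.12.

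Of all 20621 genes tested, 16 were measured on the 4 DBA arrays and on no other, and they passed the filter through DBA only. Of these 16 genes, 12 were private, 7 of them with a gene name. Beside Defa29, Defa38 and Serpina3a these were Adra1d, the alpha-1D adrenergic receptor (at least 3.86-fold higher), Vipr2, a receptor of vasoactive intestinal peptide (at least 3.08-fold), Bnc2, a zinc finger protein (at least 1.62-fold), and Trim71, a ubiquitin ligase (at least 1.53-fold). The measured means of DBA and the others were -1.75 and -5.24 for Adra1d, -2.08 and -4.65 for Vipr2, -3.00 and -5.10 for Bnc2, and -3.03 and -4.93 for Trim71. The probe of Trim71 holds a GT stretch of 9 bases and that of Bnc2 a CA stretch of 8 bases. DBA levels of Bnc2 (-3.35 to -2.54) and Trim71 (-3.33 to -2.61) lay near or below the lowest level that all arrays could measure (-2.56). Over the alternatives their smallest differences were 0.005 and 0.0, and each call was lost under 2 of 32.

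Among the lower genes Polr1b, the second largest subunit of RNA polymerase I (chr2:128951870-128951929), stood far below all other strains. Its levels were -3.49, -4.21, -3.77 and -3.54 in DBA 5, 9, 8 and 15 and between 0.12 and 1.54 on the 16 other arrays. The difference was -4.57 ± 0.12, with a gap of 3.61 between the groups, and 2 of 4 DBA arrays were well above background. Tcf24, a basic helix-loop-helix factor, was on no DBA array above background and was at least 6.84-fold lower (means -5.37 and -1.28), with -3.90 at its second probe. Psg16, a pregnancy-specific glycoprotein, was lower by 3.14 ± 0.15, with NZO nearest at a difference of -1.02. Dnah3, a dynein heavy chain, was at least 2.11-fold lower (means -6.04 and -2.98), and 12 of the 16 other arrays measured it, none of them 129Ola. No DBA array measured it either, so its difference from 129Ola (-0.99) lies between signals near background. At a floor common to all arrays its groups were not kept apart. Folr2, a folate receptor of resident macrophages, had levels of -2.24, -2.40, -2.39 and -2.25 in DBA 5, 9, 8 and 15 and -2.14 to -1.32 in C3H. In B6, NZO and 129Ola its levels were 2.17 to 3.02, so that C3H and DBA were both low and differed by 0.46.

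Of 14 tested tissue kallikrein genes, serine proteases of 1 gene cluster, 6 were private, all of them lower in DBA. Klk1 (chr7:51484170-51484325) had levels of -4.41, -5.95, -5.42 and -5.25 in DBA 5, 9, 8 and 15 and of -2.35 to -0.58 elsewhere. It was on no DBA array well above background and at least 7.1-fold lower (means -5.26 and -1.22). Egfbp2 was at least 12.5-fold lower (means -4.35 and -0.30). Klk1b26, Klk1b5, Klk1b24 and Klk1b3 were lower by 3.56, 3.31, 3.30 and 2.76, but 1, 3, 1 and 4 of the 4 DBA arrays measured them. Over the alternatives the smallest of these differences were -1.12, -1.49, -1.19 and -1.36. The probes of Klk1b26 and Egfbp2 share 55 bases, so these count as 1 signal, and other probes in this family share up to 19 bases.

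**Figure D4:**
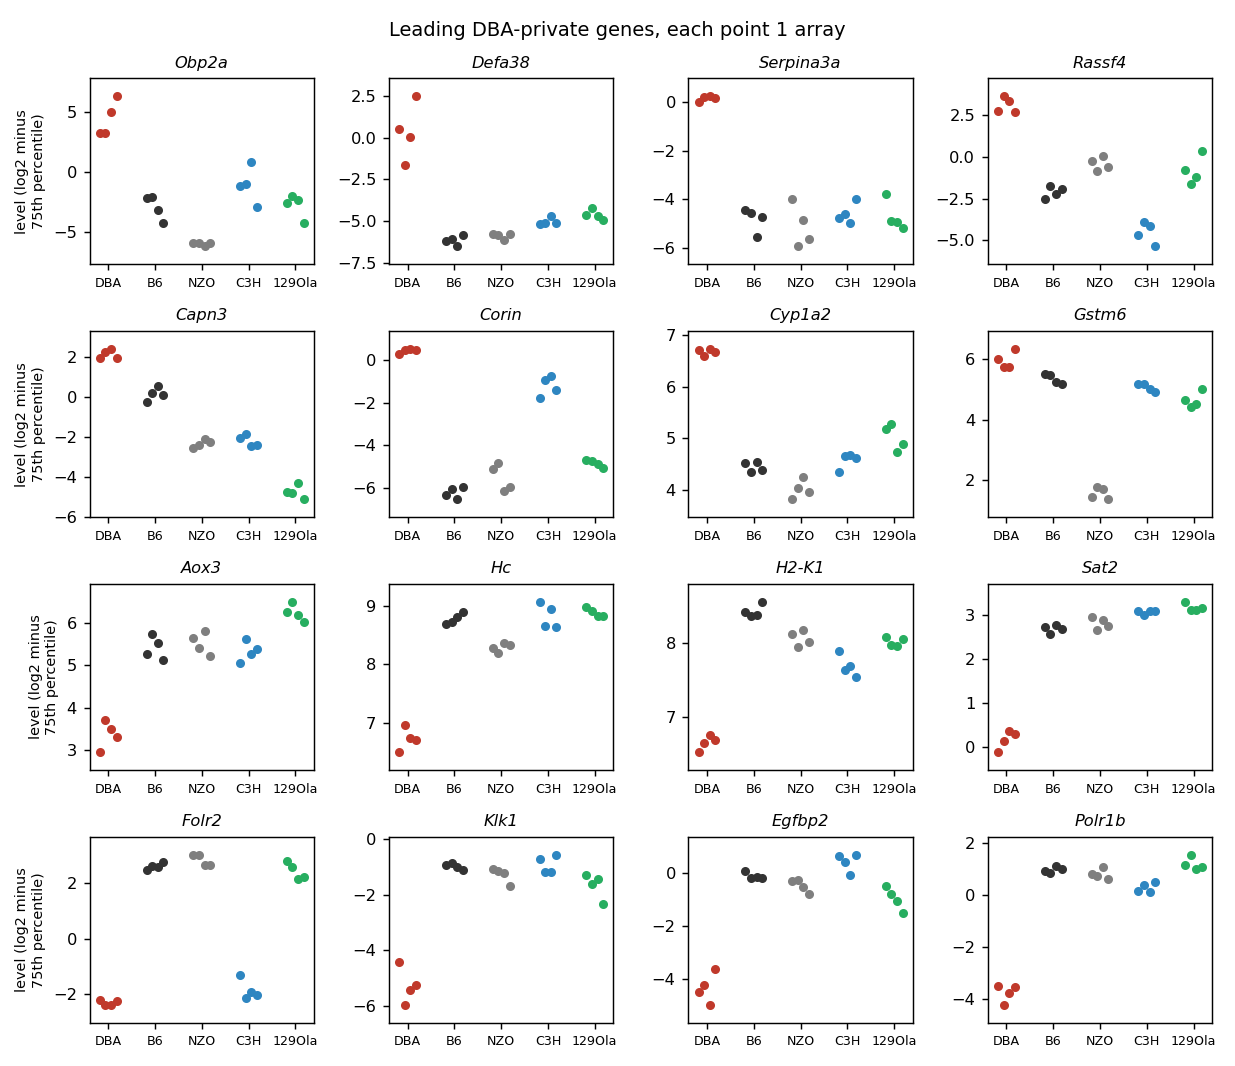
Levels (log2 signal minus the 75th percentile of the array) of 16 DBA-private genes, 1 point per array, by strain; each panel has its own axis, which does not start at 0. In the first 8 panels the DBA points lie above all others and in the last 8 below, and for Folr2 the C3H points (-2.14 to -1.32) lie next to those of DBA.

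Of the 10 genes listed for alleles known in DBA/2J, 5 were measured and 2 were private. Hc, complement C5 (chr2:34838899-34838958), had levels of 6.50, 6.95, 6.74 and 6.70 in DBA 5, 9, 8 and 15 and between 8.19 and 9.06 on the other arrays. It was lower by 1.97 ± 0.08, and the groups were separated by 1.23. Klrd1 was not well above background on any DBA array and on 8 of the 16 others, those of B6 and NZO. It was at least 1.09-fold lower (means -5.93 and -3.93), so the bound adds little. Alad, an enzyme of heme synthesis, rose by 0.84 ± 0.08 (adjusted p = 3.24e-07, limma) but overlapped C3H, at 6.58 to 6.77 against 6.54 to 6.93 in DBA. Glo1, a glyoxalase, differed by 0.19 ± 0.07 (adjusted p = 0.0502, limma), with a mean above those of B6 and NZO and below those of C3H and 129Ola. Ahr, the aryl hydrocarbon receptor, differed by -0.20 ± 0.17 (adjusted p = 0.417, limma).

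Over all genes, 5978 of 20621 were past the threshold (29.0%), 2300 higher in DBA (11.2%) and 3678 lower (17.8%). When the scaling percentile came only from probes measured on all 20 arrays, the split was 3038 higher and 2972 lower. Past the threshold against each of the 4 strains in 1 direction were 296 genes higher (1.44%) and 356 lower (1.73%). All 678 private genes were past the first threshold, which their choice makes likely, and 558 were past it against each strain. The gene lists below were chosen with earlier results of these data known, and their shares past the threshold are to be read against 29.0% and a median difference of -0.05 over all genes.

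Drug-metabolizing enzymes were more often higher than lower in DBA. Of 45 cytochrome P450 genes 35 were measured, 17 rose, 3 fell and 15 were not past the threshold (57.1% past), with a median difference of 0.29. Cyp1a2, which oxidizes caffeine and arylamines (chr9:57528060-57528119), had levels of 6.72, 6.61, 6.73 and 6.68 in DBA 5, 9, 8 and 15 and between 3.82 and 5.29 elsewhere. It was higher by 2.17 ± 0.09, with 129Ola nearest. Cyp3a59 was higher by 0.99 ± 0.16, with 0.36 at its second probe, and may not be separated from other Cyp3a genes. Cyp2u1 was higher by 0.96 ± 0.10 at a probe with 32 alternating G and T bases, and gave -0.07 and 0.24 at 2 other probes. Among 71 measured genes of conjugation and detoxification 17 rose, 14 fell and 40 were not past the threshold (43.7% past; median 0.10). Gstm6, a glutathione transferase, had levels of 6.03, 5.76, 5.75 and 6.34 in DBA 5, 9, 8 and 15, of 4.44 to 5.53 in B6, C3H and 129Ola, and of 1.37 to 1.78 in NZO. It was higher by 1.80 ± 0.12, and its 2 other probes were private as well, at 1.57 and 1.74. Aldh1a1, a retinal dehydrogenase, was higher by 0.72 ± 0.12. Aox3, a hepatic aldehyde oxidase (chr1:58245203-58245262), had levels of 2.96, 3.71, 3.49 and 3.32 in DBA 5, 9, 8 and 15 and between 5.06 and 6.49 elsewhere, a difference of -2.25 ± 0.14. Gsto1 was lower by 0.72 ± 0.09 and Akr1c13 by 0.54 ± 0.09.

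The lists of lipid and glucose genes held 0 to 2 private members each, against a private share of 3.29% over all genes. Lists of this size cannot show whether their share differs from it. Of 52 genes of fatty acid oxidation 4 rose and 9 fell, with 39 not past the threshold (median -0.04). Cyp4a32 rose by 1.88 ± 0.30 (adjusted p = 0.000166, limma) without being private. Of 32 genes of fatty acid and triglyceride synthesis 2 rose and 6 fell, with none private and a median of -0.20. Scd1, which desaturates stearate, fell by 2.29 ± 0.42 (adjusted p = 0.000504, limma), with 129Ola nearest. Elovl3 rose by 0.97 ± 0.36 (adjusted p = 0.0492, limma), a call lost under 24 of 34 alternatives. Of 27 genes of cholesterol synthesis and uptake 1 rose and 4 fell (median 0.05), with Sc5d at -0.46 ± 0.14 (adjusted p = 0.0237, limma; lost under 10 of 34). Of 26 genes of bile acid synthesis and sterol transport 4 rose and 5 fell (median -0.09). Among them were the sterol transporter subunit Abcg5 (-1.56 ± 0.18, adjusted p = 5.57e-06, limma) and the export pump Abcc4 (-1.14 ± 0.17, adjusted p = 5.99e-05, limma). NZO was nearest for Abcg5 (difference -0.50) and C3H for Abcc4 (-0.26).

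Of 25 apolipoprotein and lipoprotein genes 5 rose and 9 fell (56.0% past; median -0.15). The private members were Apobec1, which edits apolipoprotein B mRNA and was lower by 1.12 ± 0.15, and Apom, a carrier of sphingosine phosphate, lower by 0.69 ± 0.07. Of 35 genes of glucose metabolism and insulin signalling 4 rose and 7 fell (median -0.04). Serpina12 (vaspin) was on no DBA array above background and was at least 8.94-fold lower (adjusted p = 2.04e-09, limma; means -5.50 and -0.89), and 129Ola, at -5.18 to -4.16, was low as well. Enpp1 rose by 2.59 ± 0.14 (adjusted p = 4.19e-10, limma), but its differences from B6 (0.10) and C3H (-0.16), the other strains that measured it, were small. Of 38 genes of the urea cycle and amino acid metabolism 3 rose and 7 fell (median -0.07). Asns, asparagine synthetase, was private and lower by 1.5 ± 0.26, and Tdo2 rose by 0.73 ± 0.14 (adjusted p = 0.000606, limma).

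Of 29 genes of heme and iron metabolism 3 rose and 10 fell (44.8% past; median -0.17). Ppox, an enzyme of heme synthesis, Ftl1, the ferritin light chain, and Hpx, which binds heme in plasma, were private and lower by 0.63 ± 0.07, 0.55 ± 0.07 and 0.45 ± 0.09. Of 10 measured major urinary protein and odorant-binding genes 5 rose and 0 fell (median 0.38), with Obp2a private and Mup20 at 0.60 ± 0.16 (adjusted p = 0.0101, limma; -0.06 against B6 and NZO only). Of 32 sex-biased liver genes 13 rose and 3 fell, with 16 not past the threshold (median 0.22). Moxd1 rose by 4.44 ± 0.99 (adjusted p = 0.00274, limma), with 9 of the 16 other arrays above background, and its difference from B6 was 1.06. Of 25 proliferation genes 3 rose and 5 fell (median -0.15), with Mcm6 at -1.21 ± 0.24 (adjusted p = 0.000911, limma; 1.1 against 129Ola) and Ccnd1 at -1.0 ± 0.35 (adjusted p = 0.0386, limma; lost under 13 of 34 alternatives).

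Of 60 interferon response genes 18 rose, 8 fell and none was private (43.3% past; median 0.24). Ifi202b rose by 3.08 ± 0.12 (adjusted p = 7.44e-12, limma), with NZO nearest (difference 0.18) and no B6 array above background, and Mndal fell by 3.98 ± 0.33 (adjusted p = 7.15e-08, limma), again with NZO nearest (-0.31), and 1 of 4 DBA arrays measured it. Of 32 genes of the major histocompatibility complex (MHC) 9 rose and 10 fell (59.4% past; median 0.01). H2-K1, a classical class I chain (chr17:34133055-34133114), had levels of 6.52, 6.64, 6.75 and 6.69 in DBA 5, 9, 8 and 15 and between 7.54 and 8.56 elsewhere, a difference of -1.40 ± 0.07. Its 2 other probes disagreed, with -0.82 and 2.71, each private, so that no direction of the transcript follows. H2-M2 was lower by 1.09 ± 0.09 and H2-Q7 by 0.89 ± 0.09, and the array may not separate copies or alleles in this family.

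Of 49 complement and acute phase genes 11 rose and 10 fell (42.9% past; median -0.08). Beside Hc, C8g of the membrane attack complex was lower by 0.58 ± 0.07 and factor B (Cfb) by 0.24 ± 0.07. Of 28 serine protease inhibitors 8 rose and 6 fell, with 14 not past the threshold (median -0.03), and 4 were private and higher. These were Serpina3a, Serpina3c and Serpina3n, and Serpinb8 (1.96 ± 0.16), whose only probe holds 14 alternating G and T bases.

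Markers of other cell types were read the same way. Of 25 Kupffer cell and macrophage markers 1 rose, 4 fell and 20 were not past the threshold (median -0.08), and the private ones were Folr2, Cd68 (-0.57 ± 0.10; -2.16 at a second probe) and Itgam at its CA probe. The mean level of this list was 1.15 to 1.30 in DBA, 1.87 to 2.32 in B6, 1.44 to 1.74 in NZO, 0.69 to 1.41 in C3H and 1.18 to 1.70 in 129Ola, and each marker was above background on at least 1 DBA array. Its part in these results was not tested, and in tissue RNA fewer cells of a type and less RNA per cell cannot be told apart. Of 15 T, B and NK cell markers 1 rose (Cd3e, 0.71 ± 0.25; adjusted p = 0.0416, limma; lost under 18 of 34 alternatives) and 1 fell, Klrd1. Of 9 neutrophil markers 0 rose and 3 fell (median -0.49), with Cebpe and Retnlg on no DBA array above background. The mean level of this list was -2.29 to -1.51 in DBA, -1.15 to 0.24 in B6, -0.93 to -0.41 in NZO, -2.02 to -1.10 in C3H and -2.41 to -1.25 in 129Ola. For Cebpe only the 4 B6 arrays were above background, at 2.64 to 3.20. DBA lay 2.23-fold or more below the other strains for Cebpe (means -5.24 and -2.90, limma adjusted p = 6.38e-07). Its differences from NZO (-0.12), C3H (-0.53) and 129Ola (-0.62) were small, so the Cebpe bound reflects the B6 level. The bound for Retnlg in DBA was 1.59-fold or more (means -5.53 and -3.39, limma adjusted p = 0.000103). Of 19 sinusoidal endothelial markers 1 rose and 6 fell, with Lyve1 at -1.36 ± 0.33 (adjusted p = 0.00521, limma) and Dnase1l3 at -0.56 ± 0.12 (adjusted p = 0.00177, limma). Levels of Lyve1 in DBA (-2.33 to -1.12) overlapped those in 129Ola (-2.25 to 0.21). Dnase1l3 differed by only -0.02 from NZO and -0.11 from C3H. Of 19 stellate cell markers 1 rose and 5 fell. Col1a1 fell by 1.12 ± 0.22 (adjusted p = 0.00107, limma), with 129Ola nearest (difference -0.46). Timp1 was at least 1.47-fold lower (adjusted p = 0.0211, limma, means -4.48 and -3.45, lost under 10 of 33 alternatives).

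Of 12 cholangiocyte markers 3 rose and 1 fell. Cftr rose by 1.37 ± 0.29 (adjusted p = 0.00187, limma), with 7 of the 16 other arrays above background and NZO nearest (difference 0.26). Spp1 was private and lower by 1.09 ± 0.14. Of 10 erythroid markers 2 rose, Klf1 by 0.93 ± 0.18 (adjusted p = 0.000753, limma) and Tfrc by 1.12 ± 0.39 (adjusted p = 0.0373, limma, lost under 10 of 34 alternatives). Klf1 lay near the level of C3H (difference 0.15). Of 6 adipocyte markers 2 rose, Adrb3 by 3.18 ± 0.18 (adjusted p = 4.63e-10, limma), which lay at the level of C3H (difference -0.16), and Pparg by 0.65 ± 0.18 (adjusted p = 0.0101, limma; lost under 4 of 34 alternatives), with differences of -0.07 from B6 and 0.22 from NZO. None of 10 skeletal muscle markers was past the threshold. Of 7 exocrine pancreas markers Cela2a was past it, at least 1.14-fold lower (adjusted p = 0.0014, limma; means -5.93 and -3.86). Of 11 intestine and stomach markers 4 rose and 2 fell, and the 2 private ones were Defa29 and Defa38. The mean level of this list was 0.10 to 0.82 in DBA and -1.59 to -0.39 elsewhere, a range to which the 2 defensins contribute, and its part in the defensin signal was not tested.

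Private genes lay on all chromosomes. Their share was highest on chromosomes 2 (69 of 1525 genes, 4.52%) and 7 (70 of 1552, 4.51%) and lowest on chromosome 18 (9 of 505, 1.78%), against 3.29% overall and leaving out chromosome Y, with 1 of 10. A run was defined as private genes whose probes follow each other within 1 Mb, and 412 of the 678 genes lay in 129 runs, 21 of them with 5 or more genes. How many runs the spacing of the tested genes alone would give was not tested. Each run begins and ends at a private gene, which raises the share of private genes within the runs. The longest was on chromosome 11 (mm9 positions 68717989 to 70845753), where 19 of 114 tested genes were private (16.7%), 6 higher and 13 lower. The largest differences were those of 6330403K07Rik, measured in DBA only and at least 10.8-fold higher (means -0.27 and -5.35), and Gm15772 (-3.84, with a gap of 2.45). The run also held Sat2, an acetyltransferase family member (-2.76 ± 0.08; -1.40 at a second probe, also private), Tnfsfm13, a fusion transcript of 2 cytokine genes (-2.51; -0.90 at a second probe), Rnasek (-1.12), Zmynd15 (-1.18), Med11 (-1.02), Mpdu1 (-0.86), Cd68, Tmem256 (-0.48), Psmb6, a proteasome subunit (-0.48), Wrap53 (-0.47), Gabarap, an autophagy protein (-0.43), and Pelp1 (-0.39). Pelp1 was private and higher, at 0.78, at its second probe. Chd3, a chromatin remodeller (0.92), and Gltpd2 (1.08) were higher. Arhgef15 (2.10), Elp5 (1.21) and Spag7 (0.92) were higher at probes with the GT motif, and Arhgef15 was private and lower, at -2.26, at its second probe. Sat2 had levels of -0.10, 0.14, 0.38 and 0.29 in DBA 5, 9, 8 and 15 and between 2.57 and 3.30 elsewhere.

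The second run, on chromosome 7 (49915479 to 52824667), held 15 private genes of 101 tested (14.9%), 13 of them lower. Beside the kallikreins these were Zfp975, a zinc finger protein (-1.10), Myh14, a non-muscle myosin (-0.65), Bcl2l12 (-0.60), Ftl1, Irf3, an interferon regulatory factor (-0.35), 0610005C13Rik (-1.52) and 1700028J19Rik (-0.93). Zfp715 (1.18) and 2310002F09Rik (1.51) were higher, both at probes with the GT motif. Zfp975 had 4 other probes, from -1.96 to 0.82. The run on chromosome 17 (33782586 to 36272996) spans the MHC, with 13 of 153 genes private (8.5%), 4 higher and 9 lower. By the probe that stands for each gene, it held H2-K1, H2-Q7, Cfb, Apom, Pram1 (-1.27), Daxx (-0.38) and Abcf1 (-0.28) on the lower side and Msh5 (1.11), Vars2 (0.95) and Prrt1 (0.90, GT motif) on the higher side. Second probes gave the opposite sign for Abcf1 (0.27), Msh5 (-0.84) and Prrt1 (-0.20), as 1 of the other H2-K1 probes did, and the same for Vars2 (0.95).

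On chromosome 2 (24646395 to 25563006), 10 of 47 genes were private (21.3%). Obp2a and Bmyc (1.70), whose probes lie next to each other, Arrdc1 (0.54) and Ehmt1 with its GT probe were higher, and Uap1l1 (-2.07), Mrpl41, a mitochondrial ribosome protein (-1.61; -0.10 at a second probe), Entpd2 (-1.04) and C8g were lower. On chromosome 3 (94257948 to 96515877), 8 of 98 genes were private (8.16%), with Selenbp1 (0.71) and Cdc42se1 (0.75) higher and Polr3c (-0.36) lower. The histone genes H2ac19 and H2ac20 had the same difference, -0.60. Cdc42se1 gave -0.23 and -0.39 at 2 other probes. On chromosome 7 (30946287 to 31742907), 8 of 46 genes were private (17.4%). Zfp146 (-1.44), Proser3 (-1.30, CA motif), Tbcb (-0.68), Lsr, the lipolysis-stimulated lipoprotein receptor (-0.50), Capns1 (-0.41) and Haus5 (-0.38) were lower, and Hcst (1.21) and Usf2 were higher.

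**Figure D5:**
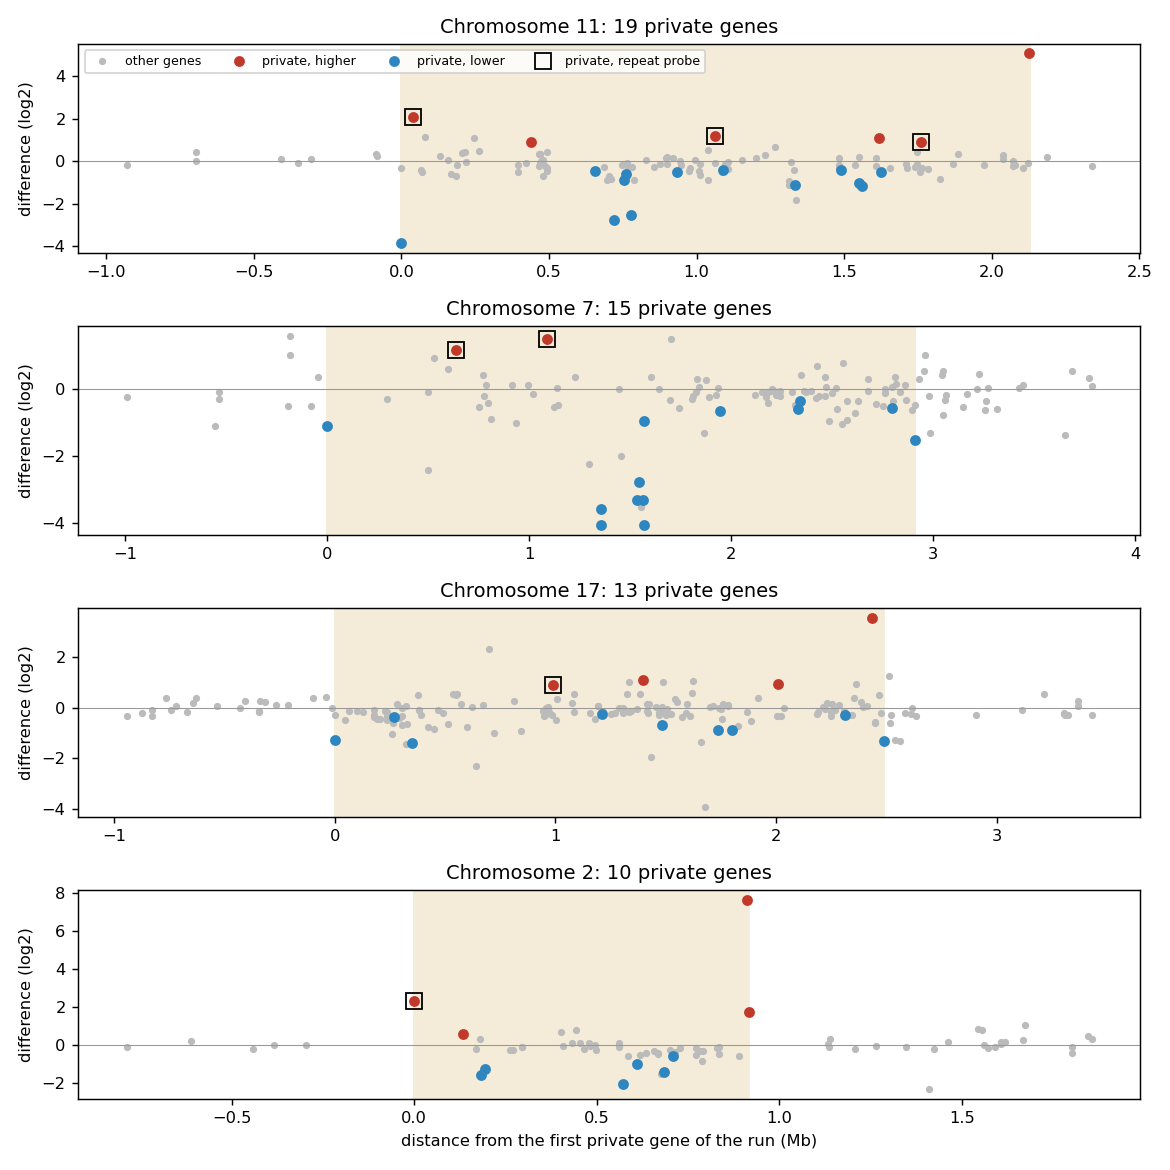
Difference of each tested gene (DBA minus the mean of the other strains, log2) along the 4 runs with the most private genes, by distance in Mb from the first private gene; the run is shaded. Private genes are red (higher) or blue (lower), squares mark probes with a GT or CA motif, and the 6 kallikrein points on chromosome 7 lie between -4.05 and -2.76.

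The differences were also taken against each pair of strains that shared an extraction protocol. The median difference of the 309 higher genes was 1.37 against the mean of B6 and NZO and 1.78 against the mean of C3H and 129Ola, and that of the 369 lower genes was -0.73 and -0.86. In 69 of the 678 genes the difference from B6 and NZO was less than 0.5 times that from C3H and 129Ola. Of all 20621 genes, 9537 met this condition. The private rule asks DBA to lie beyond every B6 and NZO value, which makes a low count likely. The part of the protocol in the differences was not tested. Within the first shared scan day the medians were 1.17 and -0.71 for DBA 9, and within the second 1.52 and -0.81 for DBA 5. With levels raised to the lowest level that all arrays could measure (-2.56), 629 of the 678 genes kept their groups apart, 294 higher and 335 lower. The genes nearest the boundary differed little from those just outside. Inside were B9d2 on the lower side (gap 0.001) and 3 probes without a gene name (gaps 0.0006 to 0.0027). Just outside, with an overlap of at most 0.0029, were Mcfd2 (difference 0.47), 2310047K21Rik, LOC102633223 and 1 probe without a gene name.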

How the data were processed

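Liver RNA of 20 mice was measured on 1-colour Agilent arrays. Per the file headers, the deposited values are spot intensity (processed, mean and background signal) from Agilent Feature Extraction, in an earlier version for B6, NZO and DBA and a later one for C3H and 129Ola, in build mm9, and other columns hold flags of 0 or 1. The submitters' processing notes name version 9.1. The authors' value table of intensity (37892 probes, 20 columns with identical sorted values, median 19.9) is an alternative whose background correction stays unknown; its columns run the same way as the scanner values.

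Of 62976 spots per array 3671 control spots and 96 to 186 outlier spots were left out, and none was saturated. The log2 processed signal minus each array's 75th percentile was used for the 55642 probes kept. A probe entered when 1 strain or more had it flagged as well above background on its 4 arrays, and the brightest probe stood for a gene (20621 genes). RefSeq accessions matched the GRCm38.p6 gene table, used for names only, for 28158 of 30247 probes. The limma package (3.58.1, R 4.3.3) fitted strain means over 20 arrays (15 residual degrees of freedom, 17.1 with eBayes), with two-sided p-values adjusted by Benjamini-Hochberg over all genes and a threshold of 0.05. The p-values rest on the spread among the 4 mice of a strain. For these and for the SE, arrays of a slide were treated as independent. The fit was tested on simulated data.

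Where no array of a side measured a probe, "at least N-fold" sets the brighter mean against a limit, which is on each array the higher of the probe's own signal and the lowest signal flagged as above background. Probes were not compared with strain genomes, so an allele under a probe can change its signal. The number of arrays limits the precision.

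Named are the 12 private genes with a gene name and the largest difference in each direction, those measured on 1 side only (up to 8 each), members of the 6 longest runs, the private or, where fewer than 2 are, the 2 most changed members of 18 pathway and 12 marker lists, genes with known DBA/2J alleles and genes at the boundary. The gene 5830417I10Rik and the genes shown by probe sequence (Abca17, Magef1, Vax2, Hpca, Blcap, Fdxacb1, Slc8a3, Krt222 and Idua) were added after their values were seen. The members and lists were chosen with earlier results of these data known. Alternatives changed background correction, scaling, filter, probe choice, strains, blocks and animals. Results for some genes under the naming rule are not reported here.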

Additional observations from a re-analysis of the deposited data

Results flagged for a closer look

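In 2 of 38 sets of 4 arrays checked, 1 array stood apart by Dixon's ratio at the 95% critical value. For Corin, DBA 5 (0.28) lay below the other DBA arrays (0.49 to 0.52), with a ratio of 0.895. For Sfi1, DBA 9 (1.90) lay below the others (2.41 to 2.44), with a ratio of 0.937. Chance gives about 1 such array in 20 sets, and both sets stayed apart from the other strains.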

How the results depend on the processing

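There were 34 alternatives. The count of genes past the threshold (5978) became 9750 with no filter on dim probes and 3198 against B6 and NZO only, where private genes (678) were 1557 and genes past the threshold against each strain (652) were 1255, with fewer strains to differ from. Without the 2 DBA arrays of a scan day of their own, an alternative chosen after seeing the data, 1313 genes were private. Leaving out any array eases the private rule, so the higher count does not measure an effect of the scan day. With the slide as a random block (correlation within a slide 0.379), 4736 genes were past the threshold. Against each strain 250 were then past it as higher and 240 as lower. The animal number as a replicate block gave 1831 genes past the threshold and 277 against each strain. Arrays with the same number share only a number, with correlations of deviations from -0.342 to 0.38 over the 6 pairs that include DBA. Leaving out 1 array gave 4786 to 6406 genes past the threshold, 683 to 939 private, 565 to 651 past it against each strain and 148 to 151 private higher genes with the GT motif. That last count (148) was 109 in the authors' value table, the lowest of 29 alternatives.

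Over 154 named genes and their alternatives, 5185 values, 4999 kept direction and side of the threshold. Without the probes holding either motif (chosen after seeing the data) the direction turned for Arhgef15 (-2.26), Cyp2u1 (-0.0654), Ehmt1 (-0.0907), Elp5 (-0.162), Itgam (0.041), Prrt1 (-0.197) and Usf2 (-1.07), where another probe stands for the gene. The median over probes turned Arhgef15 (-0.0793), Cdc42se1 (-0.0725), Cyp2u1 (-0.0654) and Pelp1 (0.191). Cdc42se1 also turned without the 2 DBA arrays of a scan day of their own (-0.0732) and with normexp background correction (-0.151), and it ranged from -0.278 to 0.796 when 1 array was left out. It turned without DBA 9, 8 or 15. At the probe shown, all DBA levels of Cdc42se1 (0.19 to 0.40) lay above all others (at most -0.11). Where leaving out arrays turned the sign, another probe therefore stood for the gene. The difference of 2310047K21Rik turned with normexp (-0.0618), and Mup20 turned against B6 and NZO only (-0.0582). The cause was not tested for normexp and Mup20. Klrd1 lay wholly below a common floor of all arrays. Signals near background differ in their lower limit between the arrays, which limits the low genes most.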
